A study of Mus musculus with 12 samples.

Results

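The 10 genes described here encode enzymes that make, lengthen and desaturate fatty acids: Acly, Acss2, Acaca and Fasn for synthesis, Elovl5 and Elovl6 for elongation, and Scd1, Scd2, Fads1 and Fads2 for desaturation. They were chosen by symbol, as 10 of the 56980 features in the deposited gene table, and all 10 were among the 12052 genes tested. RNA was measured in bone-marrow-derived macrophages (BMDM), which are marrow cells of mice grown into macrophages with the growth factor M-CSF. WT cells and Trem2 KO cells each received either DMSO, the vehicle, or BafA1 (bafilomycin A1) at 25 nM for 22 h, with 3 replicates in each of the 4 groups. BafA1 blocks the vacuolar proton pump that acidifies lysosomes, and Trem2 is a lipid-binding receptor of macrophages and microglia. Each replicate was marrow pooled from the leg bones of several mice (3 mice where KO cells were studied, per the labels), and all cells had been frozen after differentiation and thawed before treatment. The sources used here give neither the strain, sex and age of the mice nor the deleted stretch of Trem2.

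In the pathway, Acly cuts citrate into cytosolic acetyl-CoA and Acss2 makes acetyl-CoA from acetate. Acaca, an acetyl-CoA carboxylase, turns acetyl-CoA into malonyl-CoA in the committed step, and Fasn builds palmitate from both. Elovl6 lengthens saturated and monounsaturated chains of about palmitate length, and Elovl5 lengthens polyunsaturated chains. Scd1 and Scd2 are stearoyl-CoA desaturases that make monounsaturated fatty acids, and Fads1 and Fads2 insert double bonds into polyunsaturated fatty acids on the way to arachidonic acid. Many of these genes are known targets of the sterol regulatory element binding proteins, SREBP-1 (gene Srebf1) and SREBP-2 (gene Srebf2). In macrophages the pathway is known to supply membrane lipids and precursors of lipid mediators.

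Promoter windows are shown for the genes with the largest BafA1 response in WT cells (Fasn) and in Trem2 KO cells (Fads2), and for Elovl5, which differed between the genotypes and was not called in either BafA1 comparison. Each window runs from 250 bases before to 50 bases after the gene start in RefSeq, build GRCm38.p6, and was available for 7 of the 10 genes; none is shown for Fads1, Scd1 and Scd2. The windows lie at chr11:120824498-120824797 on the minus strand for Fasn, chr19:10101454-10101753 on the minus strand for Fads2, and chr9:77917115-77917414 on the plus strand for Elovl5. Capitals mark every match, on either strand, to TCACNCCAC (a sterol regulatory element), CCAAT (the box bound by NF-Y), GGGCGG (a GC box bound by Sp1) or CACGTG (an E-box, which reads the same on both strands).
Fasn: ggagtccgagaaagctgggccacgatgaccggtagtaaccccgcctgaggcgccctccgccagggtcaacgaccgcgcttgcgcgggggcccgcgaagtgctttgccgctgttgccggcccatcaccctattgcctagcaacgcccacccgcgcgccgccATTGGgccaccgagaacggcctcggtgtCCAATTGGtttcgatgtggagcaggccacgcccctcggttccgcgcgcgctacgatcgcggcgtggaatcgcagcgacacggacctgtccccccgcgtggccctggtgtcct
Fads2: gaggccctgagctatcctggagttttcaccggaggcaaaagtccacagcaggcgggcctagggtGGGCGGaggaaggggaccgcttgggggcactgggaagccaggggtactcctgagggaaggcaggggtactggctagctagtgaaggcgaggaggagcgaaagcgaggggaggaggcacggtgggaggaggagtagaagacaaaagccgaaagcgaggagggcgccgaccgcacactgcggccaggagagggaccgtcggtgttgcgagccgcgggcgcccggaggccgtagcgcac
Elovl5: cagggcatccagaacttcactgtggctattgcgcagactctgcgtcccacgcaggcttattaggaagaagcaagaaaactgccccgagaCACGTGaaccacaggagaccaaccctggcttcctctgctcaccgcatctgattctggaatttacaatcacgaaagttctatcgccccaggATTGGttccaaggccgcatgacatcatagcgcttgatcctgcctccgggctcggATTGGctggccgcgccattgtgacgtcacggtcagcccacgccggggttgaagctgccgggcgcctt
The Fasn window held 3 CCAAT matches, of which the pair on opposite strands between 62 and 55 bases before the start overlap. The Fads2 window held 1 GGGCGG match, and the Elovl5 window held 2 CCAAT matches and 1 CACGTG match. Over the 7 windows, CCAAT was found in 4, GGGCGG in 3, CACGTG in 1 and TCACNCCAC in 0. Of 32851 windows of the same length in the table, 37.4% held CCAAT, 35.7% held GGGCGG, 7.15% held CACGTG and 1.24% held TCACNCCAC. A match is a stretch of letters and was not tested for binding.

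Library totals lay between 4407466 and 7074860 estimated counts, and RNA integrity numbers between 9.7 and 9.9. Levels below are CPM (counts scaled to library size) with TMM factors, means are ± SD with n = 3, and each count was taken at a transcript's 3′ end, so levels of different genes can be compared without a length correction. Trem2 itself was measured at 588 ± 27.2 CPM in WT cells with DMSO, 401 ± 0.45 in WT cells with BafA1, 212 ± 11.0 in Trem2 KO cells with DMSO and 159.6 ± 19.5 in Trem2 KO cells with BafA1. It was lower in the Trem2 KO cells by 1.47 (DMSO) and 1.33 (BafA1) on the log2 scale. A 3′ tag outside a deletion can persist, and the source of the remaining Trem2 tags was not tested. Summed macrophage markers (8 genes) lay between 5375 and 8760.1 CPM over the 12 libraries, and none of the 8 was at 0 in a whole group. Summed adipocyte markers (6 genes), the markers of a cell type rich in these enzymes, never passed 0.52 CPM, and 3, 3, 4 and 6 of the 6 were at 0 in the 4 groups in the order above. The 7 stromal markers summed to at most 14.7 CPM, the 6 lymphocyte markers to at most 4.40, the 5 dendritic cell markers to at most 6.01 and the 5 erythroid markers to at most 0.59.

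In WT cells with DMSO the order of levels was led by Elovl5 at 78.4 ± 6.74 CPM, whose libraries did not overlap with those of the next gene. Acly (50.6 ± 3.23 CPM) and Fads1 (48.4 ± 3.25) followed and overlapped with each other. Scd2 (18.6 ± 0.60 CPM) overlapped with Fasn (15.5 ± 2.41), and Acaca (10.6 ± 1.97) overlapped with Fads2 (8.26 ± 2.32). Elovl6 (3.67 ± 0.68 CPM), Scd1 (2.15 ± 0.41) and Acss2 (1.71 ± 0.19) were the lowest, and Scd1 and Acss2 overlapped. With BafA1 the order in WT cells changed mainly for Fasn, which moved from the fifth place to the second at 66.6 ± 4.39 CPM, with no overlap with either neighbour. In Trem2 KO cells with BafA1 the leading genes were Elovl5 (47.2 ± 1.00 CPM), Fads1 (46.7 ± 10.2) and Acly (45.2 ± 3.85), and each overlapped with the next. Summed over the 10 genes, the levels were 238 ± 6.73 CPM in WT cells with DMSO, 372 ± 15.1 in WT cells with BafA1, 169 ± 6.90 in Trem2 KO cells with DMSO and 235 ± 42.5 in Trem2 KO cells with BafA1. In a bulk culture, fewer cells of a type and less RNA per cell cannot be told apart.

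**Figure D1:**
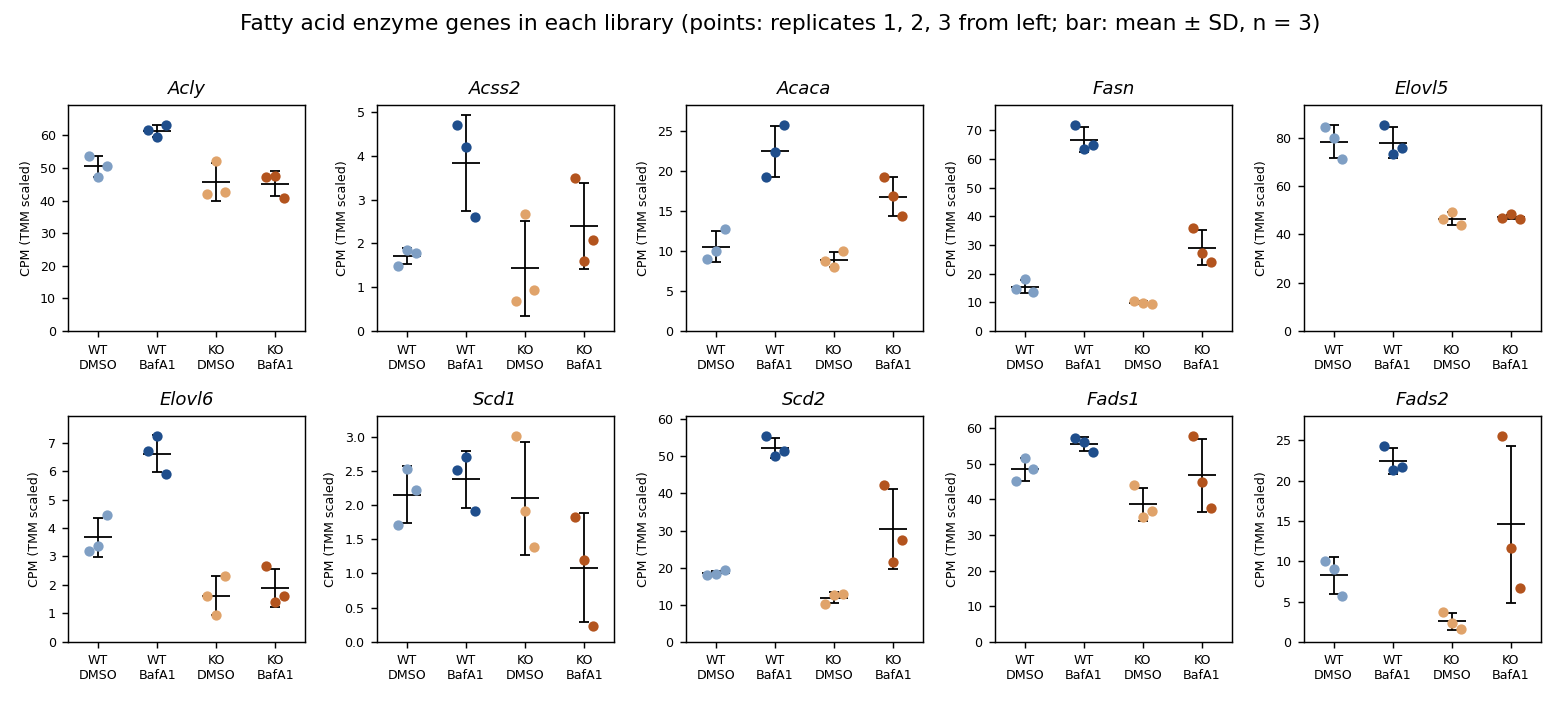
Level of each of the 10 genes in each library, in TMM-scaled CPM on linear axes from 0, by group; points are the replicates and bars the mean ± SD (n = 3). Fasn, Scd2, Fads2 and Acaca stand higher with BafA1 in both genotypes, Elovl5 stands lower in Trem2 KO cells in both treatments (46.4 and 47.2 against 78.4 and 78.0 CPM), and the 3 Trem2 KO libraries with BafA1 spread widely for Fads2 (6.72 to 25.5 CPM).

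BafA1 raised 7 of the 10 genes in WT cells and lowered none of them. The rise was steepest for Fasn, followed by Scd2, Fads2, Acss2, Acaca, Elovl6 and Acly, and Fads1, Scd1 and Elovl5 did not pass the test. Of all 12052 genes tested, 21.6% were called higher and 25.3% lower in this comparison (edgeR's quasi-likelihood test, Benjamini-Hochberg adjusted p under 0.05). The median log2 fold change was 0.95 over the 10 genes and -0.04 over all genes tested. In Trem2 KO cells 4 of the 10 genes rose (Fads2, Fasn, Scd2 and Acaca) and none fell, against 19.8% of all genes called higher and 20.7% lower. There the median was 0.52 over the 10 genes and 0.00 over all genes tested. The filter on low counts was applied over the 4 groups together, so a gene low in 1 group could pass through another. In a fit of the Trem2 KO libraries alone, 7 of the 10 genes passed it, among 11161 of all genes.

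Among the synthesis genes, Fasn was measured at 14.5, 18.2 and 13.6 CPM in the WT libraries with DMSO (replicates 1 to 3 in order) and at 71.7, 63.5 and 64.8 CPM with BafA1. The Trem2 KO libraries held 10.4, 9.73 and 9.26 CPM with DMSO and 35.9, 27.2 and 24.1 CPM with BafA1. The treated and vehicle libraries did not overlap in either genotype, and every WT library with BafA1 was above every Trem2 KO library with BafA1. Fasn rose 4.31-fold in WT cells (log2 fold change 2.11, SE 0.13, edgeR adjusted p = 1.5e-11) and 3.01-fold in Trem2 KO cells (1.59, SE 0.16, adjusted p = 6.1e-08).

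Acaca stood at 8.97, 9.94 and 12.8 CPM in WT cells with DMSO and at 19.3, 22.4 and 25.7 CPM with BafA1. Its Trem2 KO libraries held 8.78, 8.02 and 9.95 CPM with DMSO and 19.2, 16.8 and 14.4 CPM with BafA1. Both genotypes showed separate groups, with a rise of 2.10-fold in WT cells (log2 1.07, SE 0.16, edgeR adjusted p = 9.5e-06) and of 1.91-fold in Trem2 KO cells (0.94, SE 0.18, adjusted p = 0.00025).

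Acly, well expressed in all groups, moved little: 53.8, 47.3 and 50.6 CPM in WT cells with DMSO and 61.8, 59.4 and 63.1 CPM with BafA1. The Trem2 KO libraries held 42.0, 52.3 and 42.6 CPM with DMSO and 47.4, 47.5 and 40.8 CPM with BafA1, which overlap. The rise in WT cells was 1.22-fold (log2 0.28, SE 0.10, edgeR adjusted p = 0.02), and the log2 difference in Trem2 KO cells was -0.01 (SE 0.10, adjusted p = 0.93). Acss2 was among the lowest, with 3 to 28 estimated counts per library. It was measured at 1.49, 1.85 and 1.78 CPM in WT cells with DMSO and at 4.70, 4.21 and 2.61 CPM with BafA1, a rise of 2.22-fold (log2 1.15, SE 0.40, edgeR adjusted p = 0.022). Its values overlapped in Trem2 KO cells, at 0.69, 2.67 and 0.93 CPM with DMSO and 3.50, 1.60 and 2.08 CPM with BafA1 (0.73, SE 0.47, edgeR adjusted p = 0.23). Leaving out 1 library moved that log2 difference between 0.30 and 1.61, and without KO DMSO replicate 2 it was called (1.61, edgeR adjusted p = 0.03).

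The 2 elongases differed from each other. Elovl5 was measured at 84.3, 79.7 and 71.1 CPM in WT cells with DMSO and at 85.1, 73.1 and 75.8 CPM with BafA1. The Trem2 KO libraries held 46.2, 49.2 and 43.7 CPM with DMSO and 46.9, 48.3 and 46.3 CPM with BafA1. Treated and vehicle libraries overlapped in both genotypes, and the log2 differences were -0.00 (SE 0.09, edgeR adjusted p = 0.98) and 0.02 (SE 0.10, adjusted p = 0.88). Elovl6, by contrast, went from 3.20, 3.37 and 4.45 CPM to 6.71, 7.22 and 5.91 CPM in WT cells, with no overlap. In Trem2 KO cells it was at 1.62, 0.95 and 2.31 CPM with DMSO and at 2.66, 1.40 and 1.62 CPM with BafA1, which overlap. The rise in WT cells was 1.78-fold (log2 0.83, SE 0.27, edgeR adjusted p = 0.016), and the log2 difference in Trem2 KO cells was 0.31 (SE 0.41, adjusted p = 0.59). At most 48 estimated counts lay behind an Elovl6 value. Its Trem2 KO libraries held 7, 5.06 and 9.64 estimated counts with DMSO and 19, 7 and 7 with BafA1.

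Among the desaturases, Scd2 was measured at 18.1, 18.4 and 19.3 CPM in WT cells with DMSO and at 55.4, 50.1 and 51.4 CPM with BafA1. The corresponding Trem2 KO values were 10.2, 12.6 and 13.0 CPM with DMSO and 42.3, 21.6 and 27.3 CPM with BafA1. The groups were separate in both genotypes, and the treated Trem2 KO libraries were the most spread. Scd2 rose 2.80-fold in WT cells (log2 1.49, SE 0.16, edgeR adjusted p = 8.5e-08) and 2.61-fold in Trem2 KO cells (1.38, SE 0.19, adjusted p = 4.2e-06).

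Fads2 was measured at 10.0, 9.10 and 5.64 CPM in WT cells with DMSO and at 24.3, 21.4 and 21.7 CPM with BafA1. Its Trem2 KO libraries held 3.70, 2.29 and 1.62 CPM with DMSO and 25.5, 11.6 and 6.72 CPM with BafA1. Those with DMSO rested on 16, 12 and 7 estimated counts. The vehicle and treated groups did not overlap, and replicate 1 of the treated Trem2 KO cells lay above the 3 treated WT libraries. Fads2 rose 2.77-fold in WT cells (log2 1.47, SE 0.30, edgeR adjusted p = 0.00029) and 6.10-fold in Trem2 KO cells (2.61, SE 0.41, adjusted p = 2e-05). Without that library the log2 fold change in Trem2 KO cells was 1.88 (adjusted p = 0.00014).

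The sister genes of Scd2 and Fads2 did not pass the test. Fads1 was at 45.1, 51.5 and 48.5 CPM in WT cells with DMSO and at 57.2, 55.9 and 53.3 CPM with BafA1, which did not overlap, with a log2 difference of 0.20 (SE 0.12, edgeR adjusted p = 0.19). In Trem2 KO cells it was at 43.9, 35.1 and 36.6 CPM and at 57.6, 44.9 and 37.5 CPM (0.30, SE 0.13, edgeR adjusted p = 0.066). Scd1, with at most 18 estimated counts in a library, lay between 1.71 and 2.71 CPM over the 6 WT libraries. Its Trem2 KO libraries held 3.00, 1.91 and 1.39 CPM with DMSO and 1.82, 1.20 and 0.23 CPM with BafA1. The log2 differences were 0.13 (SE 0.41, edgeR adjusted p = 0.82) in WT cells and -0.80 (SE 0.49, adjusted p = 0.2) in Trem2 KO cells. Scd2 thus gave most of the stearoyl-CoA desaturase tags: its share of Scd1 and Scd2 together was 89.7% ± 1.75 in WT cells with DMSO, 95.6% ± 0.77 in WT cells with BafA1, 84.8% ± 6.80 in Trem2 KO cells with DMSO and 96.6% ± 2.30 in Trem2 KO cells with BafA1. Scd1 and Scd2 are paralogs, and the sources used here do not say how reads that fit both were divided.

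Some calls in WT cells rested on single libraries. Acss2 was not called without WT DMSO replicate 1 or 3 or without WT BafA1 replicate 1 or 2 (adjusted p 0.05 to 0.09 in edgeR), Elovl6 not without replicate 2 of either WT group (0.055 and 0.059), and Acly not without WT DMSO replicate 2 (0.075). In Trem2 KO cells Fads1 was called higher without KO DMSO replicate 1 (log2 0.42, edgeR adjusted p = 0.025) or without KO BafA1 replicate 3 (0.44, adjusted p = 0.0077), and with no filter on low counts (0.35, adjusted p = 0.029).

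**Figure D2:**
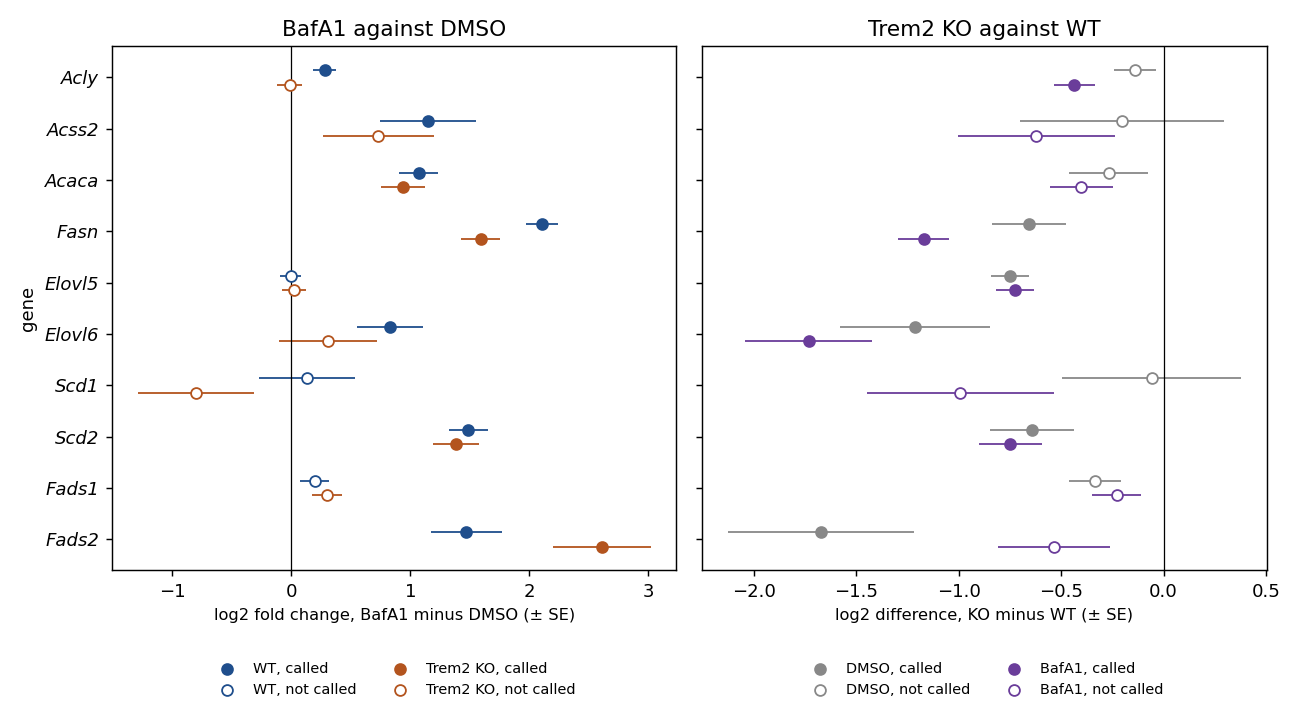
Log2 differences of the 10 genes with their SE (horizontal axes) for BafA1 against DMSO in each genotype, left, and Trem2 KO against WT in each treatment, right; filled points passed an edgeR adjusted p of 0.05. Fasn reaches 2.11 in WT cells and Fads2 2.61 in Trem2 KO cells on the left, and on the right all 10 points lie below 0 in both treatments.

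Trem2 KO cells with DMSO had lower levels of 5 of the 10 genes than WT cells with DMSO, and higher levels of none. The genes called lower were Fads2, Elovl6, Elovl5, Fasn and Scd2, and all 10 log2 differences were negative. Of all genes tested, 16.5% were called lower and 13.8% higher in this comparison. The median log2 difference was -0.49 over the 10 genes and -0.01 over all genes tested. In a fit of the DMSO libraries alone, 9 of the 10 genes passed the filter on low counts, among 11471 of all genes. The values by library are those given above. Elovl5 had the smallest adjusted p: its 3 Trem2 KO libraries (43.7 to 49.2 CPM) all lay below the 3 WT libraries (71.1 to 84.3 CPM), a level 1.68-fold lower (log2 -0.75, SE 0.09, edgeR adjusted p = 1.9e-06). Fads2 was 3.19-fold lower (-1.67, SE 0.45, edgeR adjusted p = 0.0068) and Elovl6 2.32-fold lower (-1.21, SE 0.37, adjusted p = 0.014), both without overlap between the genotypes. Fasn was 1.58-fold lower (-0.66, SE 0.18, edgeR adjusted p = 0.0071) and Scd2 1.56-fold lower (-0.64, SE 0.20, adjusted p = 0.02), also without overlap. Fads1 did not overlap between the genotypes and missed the threshold (-0.34, SE 0.13, edgeR adjusted p = 0.051). With a replicate block it was called lower (-0.35, edgeR adjusted p = 0.033). The same held with library size alone (edgeR adjusted p = 0.038), no filter on low counts (0.029) and the compared libraries alone (0.032). Fads1 was also called without KO DMSO replicate 1 (edgeR adjusted p = 0.035), KO BafA1 replicate 1 (0.023) or KO BafA1 replicate 3 (0.026). With RLE factors and by DESeq2 it was not called. The synthesis genes Acly (-0.14), Acss2 (-0.20) and Acaca (-0.27) and the desaturase Scd1 (-0.06) overlapped between the genotypes and had edgeR adjusted p-values from 0.33 to 0.94. Calls that depended on single libraries were Fasn (adjusted p = 0.06 without WT DMSO replicate 2), Scd2 (0.056 without WT DMSO replicate 3 and 0.1 without KO DMSO replicate 1) and Elovl6 (0.069 without WT DMSO replicate 3 and 0.099 without KO DMSO replicate 2), all by edgeR. Without WT DMSO replicate 3, 3 of the 10 genes were called lower, beside 1824 of all 12213 genes tested.

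With BafA1, 5 of the 10 genes were again lower in Trem2 KO cells than in WT cells, none was higher, and all 10 log2 differences were negative. The 5 were Elovl6, Fasn, Scd2, Elovl5 and Acly, against 14.2% of all genes called lower and 12.5% called higher. The median was -0.67 over the 10 genes and 0.01 over all genes tested. Elovl6 was 3.32-fold lower (log2 -1.73, SE 0.31, edgeR adjusted p = 0.00027), with 1.40 to 2.66 CPM in Trem2 KO cells and 5.91 to 7.22 in WT cells. Fasn was 2.25-fold lower (-1.17, SE 0.12, edgeR adjusted p = 5e-07), and its highest Trem2 KO library (35.9 CPM) was well below its lowest WT library (63.5 CPM). Scd2 was 1.68-fold lower (-0.75, SE 0.15, edgeR adjusted p = 0.001), Elovl5 1.65-fold lower (-0.72, SE 0.09, adjusted p = 6.2e-06) and Acly 1.35-fold lower (-0.43, SE 0.10, adjusted p = 0.0025), each without overlap. Acaca (-0.40, edgeR adjusted p = 0.057) and Scd1 (-0.99, adjusted p = 0.11) did not overlap between the genotypes and were not called. Fads2 (-0.53, edgeR adjusted p = 0.15), Acss2 (-0.62, adjusted p = 0.25) and Fads1 (-0.23, adjusted p = 0.17) overlapped. Fads2 was called lower with no filter on low counts (-0.54, edgeR adjusted p = 0.017) and with a replicate block (-0.67, adjusted p = 0.024). Acaca was called lower without WT DMSO replicate 3 (-0.40, edgeR adjusted p = 0.044) or WT BafA1 replicate 1 (-0.50, adjusted p = 0.043).

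Replicate 1 of the Trem2 KO cells with BafA1 stood apart from its group in these genes. It was the highest of its 3 libraries for 8 of the 10 genes, and for 32.1% of the 12026 tested genes with a symbol held by no other tested gene. It was also the deepest library of the series, at 7074860 estimated counts, and the part of depth or of the culture in its levels was not tested. Its summed level over the 10 genes was 283 CPM, against 222 and 201 CPM in replicates 2 and 3. Without it, 1555 of all 12234 genes tested were called lower in Trem2 KO cells with BafA1, in place of 1716 of 12052. Of the 10 genes, 9 were then called lower in place of 5. The 4 added were Fads2 (log2 -1.27, edgeR adjusted p = 0.00048), Fads1 (-0.43, adjusted p = 0.011), Acaca (-0.52, adjusted p = 0.035) and Scd1 (-1.65, adjusted p = 0.045), and Acss2 stayed uncalled (-1.07, adjusted p = 0.11). The 4 genes that BafA1 raised in Trem2 KO cells were called with and without it.

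**Figure D3:**
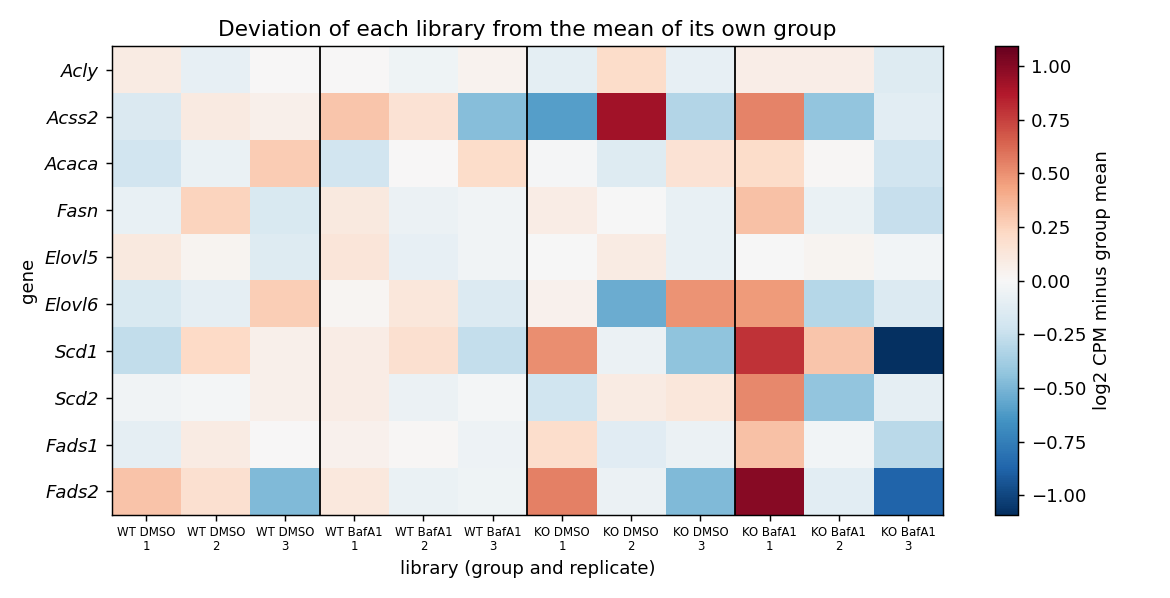
Deviation of each library from the mean of its own group, as log2 CPM (colour; red above and blue below the group mean), for the 10 genes (rows) in the 12 libraries (columns). Replicate 1 of the Trem2 KO cells with BafA1 is above its group mean or near it for every gene and reaches the largest excess for Fads2, which held 25.5 CPM there against 11.6 and 6.72 in the other replicates.

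Whether the BafA1 response itself differed between the genotypes was tested as the difference of the 2 log2 fold changes. By edgeR 0 of the 10 genes passed, as against 8.81% of all genes tested. An unadjusted edgeR p under 0.05 was found for 2 of the 10, beside 2845 of all 12052 genes tested. DESeq2 also called 0 of the 10, beside 922 of the 12052. The gene with the smallest unadjusted p was Fasn, whose log2 response was lower in Trem2 KO cells by 0.51 (difference -0.51, SE 0.22, edgeR adjusted p = 0.16). For Fads2 the difference was 1.14 in the other direction (SE 0.54, edgeR adjusted p = 0.2), and for Acly it was -0.30 (SE 0.14, adjusted p = 0.21). Without replicate 1 of the Trem2 KO cells with BafA1 the difference was -0.73 for Fasn (edgeR adjusted p = 0.033). It was 0.39 for Fads2 (edgeR adjusted p = 0.62) and -0.34 for Acly (adjusted p = 0.19). So 1 of the 10 genes was called, beside 950 of all 12234 genes tested. A p above the threshold does not show that the genotypes responded alike.

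The factors that govern these genes moved unequally. Srebf2, the SREBP of the cholesterol genes, was measured at 68.3 ± 4.95 CPM in WT cells with DMSO, 135 ± 11.8 with BafA1, 45.0 ± 0.97 in Trem2 KO cells with DMSO and 87.6 ± 12.2 with BafA1. It rose with BafA1 by 0.99 (log2, edgeR adjusted p = 1.3e-08) and 0.97 (adjusted p = 1.2e-07) in the 2 genotypes, and was lower in Trem2 KO cells by 0.60 (difference -0.60, adjusted p = 0.00014) with DMSO and by 0.62 (-0.62, adjusted p = 5.3e-05) with BafA1. Insig1, a sterol-sensing anchor that holds the SREBPs in the endoplasmic reticulum and is itself an SREBP target, rose from 20.5 ± 1.40 to 108 ± 1.82 CPM in WT cells and from 14.7 ± 1.00 to 79.0 ± 21.6 CPM in Trem2 KO cells. Those log2 changes were 2.41 (edgeR adjusted p = 3.3e-12) and 2.44 (adjusted p = 3.8e-11), and the genotype difference was -0.47 with DMSO (adjusted p = 0.053) and -0.44 with BafA1 (adjusted p = 0.0098). Srebf1, the SREBP best known for the fatty acid genes, was not called in any of the 5 comparisons. Its group means were 10.4 ± 0.90, 10.1 ± 0.64, 12.7 ± 2.22 and 11.1 ± 0.79 CPM in the same order, and its smallest edgeR adjusted p was 0.21. Scap, the SREBP escort, lay between 16.5 and 24.2 CPM over all libraries and was not called either. Nr1h3, the oxysterol receptor LXR alpha that activates Srebf1 and Scd genes, fell with BafA1 by 0.84 in WT cells (log2 -0.84, edgeR adjusted p = 1.3e-06) and by 0.91 in Trem2 KO cells (-0.91, adjusted p = 6.4e-07), and was higher in Trem2 KO cells with DMSO (0.36, adjusted p = 0.012). Mlxipl, the carbohydrate-responsive factor ChREBP, was at most 1.07 CPM and was not tested, and its partner Mlx was higher in Trem2 KO cells by 0.41 with DMSO (edgeR adjusted p = 0.0039) and 0.71 with BafA1 (adjusted p = 1.1e-05). Transcript levels do not show the cleavage that activates SREBP proteins, which was not measured.

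**Figure D4:**
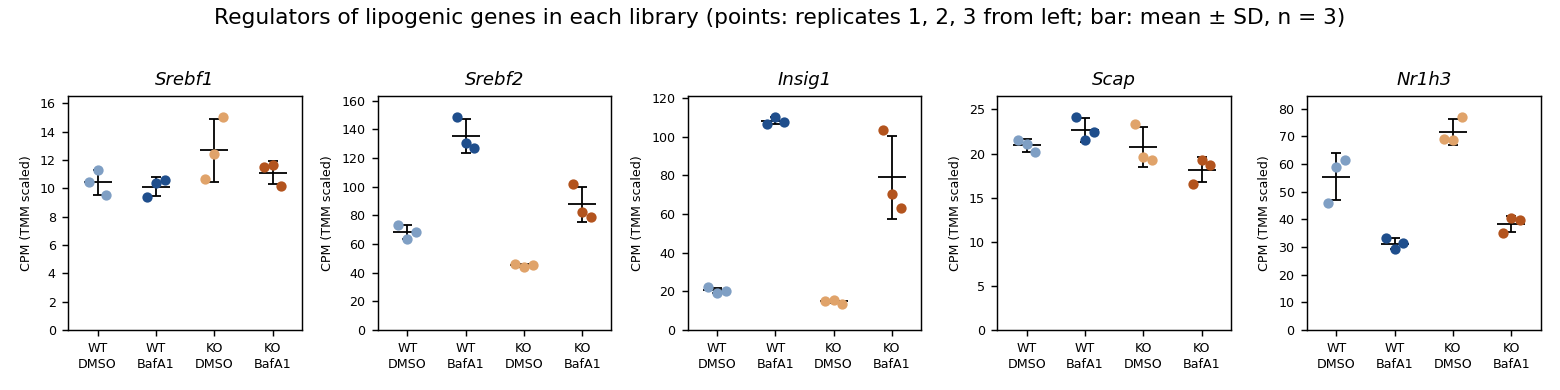
Levels of Srebf1, Srebf2, Insig1, Scap and Nr1h3 in each library, in TMM-scaled CPM on linear axes from 0, by group; points are the replicates and bars the mean ± SD (n = 3). Srebf2 and Insig1 stand higher with BafA1 in both genotypes (Srebf2 135 and 87.6 against 68.3 and 45.0 CPM), Nr1h3 stands lower, and the groups of Srebf1 lie between 10.1 and 12.7 CPM.

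The wider list of synthesis, elongation and desaturation genes moved in both directions. Of 28 further genes 19 were tested; 6 were called higher and 2 lower with BafA1 in WT cells, and 7 higher and 3 lower in Trem2 KO cells. These are 31.6% higher and 10.5% lower in WT cells against 21.6% and 25.3% of all genes tested, and 36.8% higher and 15.8% lower in Trem2 KO cells against 19.8% and 20.7%. The medians were 0.12 and 0.33, against -0.04 and 0.00 over all genes tested. Mid1ip1, which activates acetyl-CoA carboxylase, rose in both genotypes (log2 0.84, edgeR adjusted p = 1.2e-08, and 0.73, adjusted p = 3.9e-07). Hsd17b12, the ketoacyl-CoA reductase of the elongation cycle, rose by 0.59 (edgeR adjusted p = 5.2e-06) and 0.81 (adjusted p = 1.8e-07), and Cyb5b, a cytochrome b5 isoform, by 0.76 (adjusted p = 3.6e-07) and 0.65 (adjusted p = 1.1e-05). Hacd4, a hydroxyacyl-CoA dehydratase of the same cycle, fell by 1.60 (log2 -1.60, edgeR adjusted p = 1.1e-10) and by 1.37 (-1.37, adjusted p = 5.4e-10), and Idh1, a cytosolic source of NADPH, was lower with log2 changes of -0.57 and -0.51 (edgeR adjusted p = 3.2e-06 and 2.6e-05).

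Between the genotypes, 6 of these 19 genes were lower and 2 higher in Trem2 KO cells with DMSO, and 8 lower and 1 higher with BafA1. The shares were 31.6% lower and 10.5% higher with DMSO, against 16.5% and 13.8% of all genes tested, and 42.1% lower and 5.26% higher with BafA1, against 14.2% and 12.5%. The elongation-cycle enoyl reductase Tecr stood at 66.4 ± 5.69 CPM in WT cells and 37.9 ± 5.41 CPM in Trem2 KO cells with DMSO (log2 difference -0.82, edgeR adjusted p = 4.1e-06), and the difference with BafA1 was -0.74 (adjusted p = 2.1e-05). Hsd17b12 was lower by 0.67 (-0.67, edgeR adjusted p = 4.7e-06) with DMSO, and Mid1ip1 by 0.56 (-0.56, adjusted p = 2.9e-05) with BafA1. Hacd4 was the exception called higher in both treatments, at 0.95 (edgeR adjusted p = 1.8e-07) and 1.18 (adjusted p = 2.8e-07).

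Genes that use fatty acids gave mixed counts. Of 18 tested genes of fatty acid activation and glycerolipid assembly, 9 were higher and 3 lower with BafA1 in WT cells, and 8 higher and 6 lower in Trem2 KO cells. That is 50.0% higher and 16.7% lower in WT cells, where 21.6% and 25.3% of all genes were called, and 44.4% and 33.3% in Trem2 KO cells, where 19.8% and 20.7% were. Acsl1 and Acsl4, which activate long-chain fatty acids to their CoA esters, rose in WT cells by 1.08 (edgeR adjusted p = 1.7e-08) and 0.73 (adjusted p = 5.3e-08), and the phosphatidate phosphatase Lpin2 was lower (log2 -0.95, adjusted p = 6.4e-09). Of the same 18 genes, 8 were lower and 2 higher in Trem2 KO cells with DMSO, and 8 lower and 1 higher with BafA1, so that 44.4% were lower in each treatment, beside 16.5% and 14.2% of all genes. They include Mboat7, an acyltransferase of phosphatidylinositol, at -0.79 with BafA1 (edgeR adjusted p = 1.9e-05). Of 17 tested genes of mitochondrial fatty acid oxidation, 3 were higher and 6 lower with BafA1 in WT cells, and 4 higher and 5 lower in Trem2 KO cells. Their shares beside those of all genes were 17.6% higher and 35.3% lower in WT cells against 21.6% and 25.3%, and 23.5% higher and 29.4% lower in Trem2 KO cells against 19.8% and 20.7%. Cpt1a, which admits long-chain fatty acids to mitochondria, fell from 90.6 ± 2.59 to 56.6 ± 4.90 CPM in WT cells (log2 -0.68, edgeR adjusted p = 1.1e-06) and from 95.0 ± 6.80 to 56.1 ± 3.90 CPM in Trem2 KO cells (-0.76, adjusted p = 5.2e-07). Between the genotypes the oxidation genes counted 1 higher and 3 lower with DMSO and 3 higher and 2 lower with BafA1. These are 5.88% higher and 17.6% lower with DMSO, beside 13.8% and 16.5% of all genes, and 17.6% higher and 11.8% lower with BafA1, beside 12.5% and 14.2%.

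The cholesterol synthesis genes, which share the SREBP factors, moved more uniformly. All 21 tested rose with BafA1 in WT cells, with a median log2 change of 1.64, and 17 of 21 rose in Trem2 KO cells, with a median of 1.76; none was called lower in either. Mvd, a decarboxylase of the mevalonate pathway, went from 13.7 ± 1.74 to 163 ± 22.9 CPM in WT cells (log2 3.55, edgeR adjusted p = 6.1e-13). Between the genotypes, 6 of the 21 were lower in Trem2 KO cells with DMSO and 12 with BafA1, and none was higher. All genes tested gave 21.6% and 19.8% higher with BafA1 in the 2 genotypes, and 16.5% and 14.2% lower between the genotypes in the 2 treatments. Hsd17b7, a ketosteroid reductase of cholesterol synthesis, stood at 9.33 ± 1.99 CPM in Trem2 KO cells and 18.9 ± 3.15 CPM in WT cells with DMSO (edgeR adjusted p = 0.00036), and was lower by 1.07 on the log2 scale with BafA1 (-1.07, adjusted p = 1.7e-05). In 19 of the 21 genes the highest treated Trem2 KO library was again replicate 1.

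By correlation of log2 CPM over the 12 libraries, the genes most like Fasn were Sec24d, a coat protein of vesicles leaving the endoplasmic reticulum (Pearson r = 0.993), Rpn1, a subunit of the oligosaccharyltransferase (0.993), and Sel1l, a component of endoplasmic reticulum degradation (0.992). Rpn1 showed log2 changes of 1.48 and 1.04 with BafA1 in WT and Trem2 KO cells and differences of -0.54 and -0.97 between the genotypes, beside 2.11, 1.59, -0.66 and -1.17 for Fasn. Most like Scd2 were Fam102b (r = 0.988), Mia2 (0.983), a cargo receptor at endoplasmic reticulum exit sites, and Tmem248 (0.982). Most like Fads2 were the glycolytic aldolase Aldoc (r = 0.984), the peroxiredoxin Prdx6 (0.972) and the glucose transporter Slc2a1 (0.969). These values describe the 12 libraries, which form 4 groups and share their depths, and carry no test.

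Markers of macrophages, of other cells and of the cell cycle moved with the groups. Of the 8 macrophage markers 7 were called lower with BafA1 in WT cells (median log2 change over the 8 -1.10) and 7 in Trem2 KO cells (median -1.35), against 25.3% and 20.7% of all genes tested. Cd68, a lysosomal glycoprotein, was the exception, called higher in WT cells (0.44, edgeR adjusted p = 2.2e-05) and not called in Trem2 KO cells (0.14, adjusted p = 0.12). Fcgr1, a high-affinity IgG receptor, fell from 47.5 ± 5.59 to 3.03 ± 0.88 CPM in WT cells and from 69.6 ± 8.29 to 5.08 ± 1.86 CPM in Trem2 KO cells. Mertk, a receptor for uptake of dying cells, fell from 98.4 ± 10.9 to 28.9 ± 3.86 CPM and from 188 ± 17.9 to 60.8 ± 7.31 CPM. Itgam, the integrin chain CD11b, fell from 418 ± 21.2 to 148 ± 24.1 CPM and from 165 ± 25.6 to 59.3 ± 6.05 CPM. Lyz2, at 3748 to 5299 CPM in the group means, made up most of the summed level and was lower by 0.30 (-0.30, edgeR adjusted p = 0.022) and 0.29 (-0.29, adjusted p = 0.029). Between the genotypes, 2 of the 8 were lower and 3 higher in Trem2 KO cells with DMSO, and 3 lower and 1 higher with BafA1. Of all genes tested, 16.5% were lower and 13.8% higher with DMSO, and 14.2% and 12.5% with BafA1. Itgam was lower in both treatments (-1.35, edgeR adjusted p = 3.2e-09, and -1.31, adjusted p = 6.2e-08). Mertk was higher in both (0.93, edgeR adjusted p = 3e-07, and 1.06, adjusted p = 1.6e-06). These 5 markers were named after their values were seen.

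Summed proliferation markers (8 genes) lay between 946.5 and 1020.2 CPM in WT cells with DMSO, 302 and 319.7 in WT cells with BafA1, 286 and 332 in Trem2 KO cells with DMSO, and 219.6 and 256 in Trem2 KO cells with BafA1. The shares of all genes called lower were 25.3% with BafA1 in WT cells and 16.5% in Trem2 KO cells with DMSO against WT. They were 20.7% with BafA1 in Trem2 KO cells and 14.2% in Trem2 KO cells with BafA1 against WT. Of the 8 markers, all 8, all 8, 4 and 7 were called lower in the same order. For the difference of the BafA1 responses all 8 were called higher (Trem2 KO minus WT, median 1.63), beside 588 of all 12052 genes tested. In either direction, 8.81% of all genes and 0 of the 10 enzymes were called. None of the 8 markers was at 0 in a group. Summed granulocyte markers (10 genes, 5 tested) lay between 145 and 164 CPM, 44.5 and 56.5, 376 and 656, and 67.3 and 119 in the same order. All 5 tested were lower with BafA1 in both genotypes and higher in Trem2 KO cells with DMSO, and 2 of 5 were higher in Trem2 KO cells with BafA1. Of all genes tested, 25.3% and 20.7% were lower with BafA1 in WT and Trem2 KO cells. In Trem2 KO cells, 13.8% were higher than in WT cells with DMSO and 12.5% with BafA1. Of the granulocyte markers, Ly6g was at 0 in WT cells with DMSO and in Trem2 KO cells with BafA1, and Mpo in WT cells with BafA1. The part of dividing cells, of granulocytes and of the macrophage marker shift in the differences of the 10 genes was not tested.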

How the data were processed

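Transcripts were tagged at their 3′ ends with unique molecular identifiers and read single-end, per the labels' protocols. Quantification used Salmon with GRCm39, per the submitters' processing notes, and its version, annotation and handling of duplicates were not given in the sources used here. The authors deposited estimated counts per gene, not normalized, of which 42.0% of the values above 0 were not whole (tolerance 1e-06), and they were rounded for the tests. A deposited table of log2 CPM made by the authors differed from TMM log2 CPM recomputed here (prior count 2) by at most 0.00045 and was not used for tests. Replicates of a group differed by more than sampling noise (chi-square per degree of freedom 2.16 to 5.63, genes with a summed count of at least 10), and none was merged.

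Low genes were removed by filterByExpr (at least 10 counts, and 15 in total), and the rest were fitted in R 4.3.3 by edgeR 4.0.16: TMM, quasi-likelihood test, 1 fit of the 12 libraries with group means and no block, and Benjamini-Hochberg adjustment over 12052 genes with a threshold of 0.05. Standard errors came from the log2 difference and its F statistic. The common biological coefficient of variation was 0.080. The scripts were tested on simulated data. Libraries were grouped by the labelled genotype and treatment. There were 5 comparisons: treatment in WT cells, treatment in Trem2 KO cells, genotype with DMSO, genotype with BafA1, and the difference between both treatment responses. Comparisons that share a group are not independent of each other.

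Named genes were the 10 enzymes in every comparison, Trem2, 6 regulators, the 2 genes with the smallest p per direction, list and comparison among those called, and the 3 genes most correlated with Fasn, Scd2 and Fads2; a gene named under 1 comparison may be given in another. Of the genes so named, 1 is not reported here. The 10 genes, the lists and the rules were chosen with earlier results of these data known. Promoter sequences are from RefSeq (GRCm38.p6), a different build from that of the counts, and were matched by symbol. Alternatives were RLE factors, library size alone, no filter, a replicate block, a fit of the compared libraries alone, DESeq2 1.42.0, and leaving out each of the 12 libraries. Precision of genes with few counts is limited by counting error.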

Additional observations from a re-analysis of the deposited data

Results flagged for a closer look

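By the test of the difference of the log2 responses to BafA1 (Trem2 KO minus WT), 4 of the 87 tested genes of the 5 related lists (other lipogenic genes, regulators, glycerolipid assembly, oxidation and cholesterol synthesis) passed in edgeR, which is 4.6% of them against 8.81% of all genes tested. None of the 10 enzyme genes passed with all 12 libraries. Elovl1, an elongase of saturated and monounsaturated very long chains, had a difference of -0.61 (SE 0.13, edgeR adjusted p = 0.004): it went from 53.1 ± 4.11 to 77.5 ± 4.99 CPM in WT cells and from 68.5 ± 4.15 to 65.5 ± 4.06 CPM in Trem2 KO cells. Lpin1, a phosphatidate phosphatase, had a difference of -0.62 (SE 0.16, edgeR adjusted p = 0.016), with 44.4 ± 3.94 and 54.2 ± 2.59 CPM in WT cells and 51.6 ± 4.84 and 40.5 ± 6.78 CPM in Trem2 KO cells. Tm7sf2, a sterol reductase of cholesterol synthesis, had a difference of -0.57 (SE 0.18, edgeR adjusted p = 0.049), with 33.4 ± 1.05 and 48.2 ± 3.58 CPM in WT cells and 29.6 ± 4.97 and 28.9 ± 4.68 CPM in Trem2 KO cells. Acadm, the medium-chain acyl-CoA dehydrogenase, had a difference of 0.52 (SE 0.13, edgeR adjusted p = 0.013), with 114 ± 7.68 and 83.0 ± 7.19 CPM in WT cells and 84.6 ± 2.31 and 87.9 ± 9.03 CPM in Trem2 KO cells. Each pair gives DMSO and then BafA1, with SD over 3 libraries.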

How the results depend on the processing

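Under RLE factors, library size alone, no filter, the replicate block, the compared libraries alone and DESeq2, 272 of 286 values kept their direction and their side of the threshold, 9 gained a call and 5 turned sign. The sign turned for values near 0: Elovl5 with BafA1 in WT cells was 0.0188 under RLE factors, 0.0374 with no filter, 0.0211 in the compared libraries alone and 0.0186 by DESeq2, and Acly with BafA1 in Trem2 KO cells was 0.0363 with no filter. With no filter 1 of the 10 genes, Fads2, was called for the difference of responses, beside 1015 of all 38421 genes tested.

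Leaving out 1 library at a time kept 548 of 600 values. The genes called for the difference of responses ranged from 665 to 1193 and the 10 genes called from 0 to 1. Of the 10 genes, 3 to 6 were called between the genotypes with DMSO and 5 to 9 with BafA1, 5 to 7 with BafA1 in WT cells and 4 to 5 in Trem2 KO cells. In the same order, 3015 to 3759, 2163 to 3320, 5008 to 5841 and 4147 to 4977 of all genes were called. Values that turned sign ranged over BafA1 in WT cells from -0.0558 to 0.0709 (Elovl5), over BafA1 in Trem2 KO cells from -0.0118 to 0.0774 (Elovl5), -0.0551 to 0.11 (Acly) and -0.0718 to 0.65 (Elovl6), over genotype with DMSO from -0.36 to 0.16 (Scd1) and -1.06 to 0.13 (Acss2), and over the difference of responses from -0.0401 to 0.0848 (Elovl5), -0.87 to 0.44 (Acss2), -0.10 to 0.23 (Fads1) and -0.47 to 0.0703 (Scd2). The cause was not tested.

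Whether replicate numbers pair the samples was not settled by the check used, which correlated deviations of same-numbered libraries from their group means. Between the WT groups the correlations were -0.005, 0.043 and 0.061, and 3 of 6 libraries correlated best with their own number. Between the Trem2 KO groups they were 0.074, 0.164 and 0.116, and 6 of 6 libraries correlated best with their own number. The main fit used no block. With the replicate block, 7, 4, 6, 6 and 0 of the 10 genes were called in the 5 comparisons in the order given in the methods (5615, 4861, 3640, 3225 and 1031 of all genes), with Fads1 added between the genotypes with DMSO (adjusted p = 0.033) and Fads2 with BafA1 (log2 -0.67, adjusted p = 0.024). Depth limits Acss2, Scd1 and Elovl6, which had at most 28, 18 and 48 estimated counts in a library. It also limits Fads2 in Trem2 KO cells with DMSO, at 16, 12 and 7 estimated counts. Those libraries enter its 6.10-fold rise with BafA1 and its 3.19-fold genotype difference with DMSO.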
